A study of Mus musculus with 12 samples.

Results

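Otp and 9 LIM homeobox genes, Isl1, Isl2, Lhx2, Lhx3, Lhx4, Lhx5, Lhx9, Lmx1a and Lmx1b, were followed in embryoid bodies in which doxycycline turns on Mixl1, a homeobox factor made in the primitive streak of the embryo. They are 10 of the 55487 genes counted, and each symbol matched 1 Ensembl identifier. The genes were given as a list, and the values behind the choice are not stated. Otp was already known in these data for its high level with doxycycline on day 4. Its values are therefore given as a description, without a test, and its calls enter only the counts over the members. The fold changes, standard errors (SE) and adjusted p-values of the other 9 genes come from a fit over all genes and likewise describe these libraries; they are no independent support, since the list was made with results of these libraries known.

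The cells were mouse epiblast stem cells, which are pluripotent and primed for differentiation, and had been converted in culture from embryonic stem cells. In all 4 groups they carried the doxycycline-responsive FLAG-Mixl1 construct (the line Mixl1DOX), and they were grown as floating embryoid bodies in medium with fetal calf serum. NoDox_d2 and NoDox_d4 were collected on days 2 and 4 without the drug. D1Dox_d2 and D3Dox_d4 were collected on days 2 and 4 with doxycycline at 1 µg/mL. The number after D is not defined in the labels, and the series title speaks of differential timing of Mixl1. Each group had 3 libraries. No library came from cells without the construct, so doxycycline itself and Mixl1 cannot be told apart. The labels do not give the number of clones, and they do not say that the libraries of a group stem from different cultures. The p-values therefore rest on a spread between libraries that may be technical.

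LIM-homeodomain proteins bind DNA through a homeodomain and carry a pair of LIM zinc-finger domains, which join them through the cofactor Ldb1 into larger complexes. In the developing nervous system, combinations of these factors mark classes of neurons: Isl1, Isl2, Lhx3 and Lhx4 are known from motor neurons, Lhx1, Lhx5, Lhx2, Lhx9 and Lmx1b from spinal and hindbrain interneurons, and Lmx1a and Lmx1b from the roof plate and from dopaminergic neurons of the midbrain. Isl1 is also a factor of sensory neurons and of cardiac progenitors, and Lhx2 of the forebrain and eye field. Otp (orthopedia) is a homeodomain protein without LIM domains, known above all from neuroendocrine neurons of the hypothalamus, where it acts beside Sim1.

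The sequence before the transcription start was taken for the genes whose levels differed most between groups: Otp, the sister genes Lmx1b and Lmx1a, whose levels went opposite ways on day 4, and Lhx4. The sequences are RefSeq's, of the build GRCm38.p6, each before a RefSeq start of the gene and outside its counted exons, at chr13:94875386-94875601 (Otp, plus strand), chr2:33641099-33641348 (Lmx1b, minus strand), chr1:155742028-155742277 (Lhx4, minus strand) and chr1:167689308-167689556 (Lmx1a, plus strand). The windows of Otp and Lmx1b lie before the counted gene, whereas those of Lhx4 and Lmx1a lie inside it, between the first and the last counted base. Each is read 5′ to 3′ along the gene, and capitals mark CCAAT or its complement ATTGG, the box bound by NF-Y.
Otp: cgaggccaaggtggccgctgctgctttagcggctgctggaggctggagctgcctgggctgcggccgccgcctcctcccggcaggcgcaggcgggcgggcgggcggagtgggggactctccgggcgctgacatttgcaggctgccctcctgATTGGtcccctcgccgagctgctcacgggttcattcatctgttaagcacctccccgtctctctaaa
Lmx1b: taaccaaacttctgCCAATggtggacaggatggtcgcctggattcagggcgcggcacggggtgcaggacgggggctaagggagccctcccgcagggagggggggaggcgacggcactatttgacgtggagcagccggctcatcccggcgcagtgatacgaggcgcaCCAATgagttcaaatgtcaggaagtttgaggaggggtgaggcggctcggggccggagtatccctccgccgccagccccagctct
Lhx4: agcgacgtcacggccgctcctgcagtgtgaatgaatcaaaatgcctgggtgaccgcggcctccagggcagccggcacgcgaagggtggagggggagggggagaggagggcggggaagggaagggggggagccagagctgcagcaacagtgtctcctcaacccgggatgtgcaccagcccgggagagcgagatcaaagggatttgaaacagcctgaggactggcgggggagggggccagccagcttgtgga
Lmx1a: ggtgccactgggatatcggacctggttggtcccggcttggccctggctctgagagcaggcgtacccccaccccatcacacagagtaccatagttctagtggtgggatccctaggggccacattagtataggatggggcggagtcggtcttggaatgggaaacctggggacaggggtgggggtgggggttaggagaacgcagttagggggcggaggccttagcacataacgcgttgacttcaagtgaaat
RefSeq windows were found for 9 of the 10 genes, with 11 starts in all. Lhx5 had none. In the 250 bases before the start, CCAAT on either strand occurred in the windows of Otp, Isl1, Isl2, Lhx9 and Lmx1b, against 33.8% of 32851 promoters of the same length. The homeodomain letters TAATTA, and the paired forms TAATNNATTA and TAATNNNATTA, whose matches can overlap each other, were in 0 of the 11 windows, against 4.84%, 0.384% and 0.463% of all promoters, searched on both strands. TATAAA was in 1 window, of Lhx3, against 12.4%. The 11 windows had a median of 66.0% G or C, with 53.6% as the lowest and 72.8% as the highest, against a median of 52.4% over all promoters. Their median ratio of observed to expected CpG was 0.68, against 0.37. These are counts of letters, and none of them shows a binding site.

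The libraries held 24100487 to 28020036 counts, so that 3 counts equal 0.106 to 0.130 CPM (counts scaled to library size and composition). Mixl1 was checked first. It was 361 to 392 CPM in D1Dox_d2 and 417 to 477 CPM in D3Dox_d4, against 1.11 to 1.83 CPM in NoDox_d4. Among the NoDox_d2 libraries, replicates 2 and 3 had 0.592 and 1.15 CPM, but the library labelled replicate 1 had 90.9 CPM. T, another primitive streak gene, was at 1259 CPM in that library, against 100.04 and 142 CPM in replicates 2 and 3. A gene count does not separate the construct from the endogenous gene. The libraries labelled replicate 1 of both uninduced groups stood apart from the rest of their group, with correlations of log2 CPM of 0.957 to 0.961 against 0.990 and 0.991 between replicates 2 and 3. The members' fold changes with doxycycline and the counts of the gene lists are therefore also given without these 2 libraries, called here the uninduced replicate 1 libraries. For other genes of the lists that is done where a printed call ended or began, or where a called value moved by more than 1.5-fold. Leaving out these 2 libraries raised the number of all genes called from 5136 to 9902 on day 2. On day 4 it rose from 4263 to 7168. Higher list counts in that setting are therefore not read as results about the lists. Of the markers of epiblast stem cells, all 8 listed were detected in every group, with a summed level of 1539 to 1661 CPM in NoDox_d2, 819 to 939 in D1Dox_d2, 745 to 927 in NoDox_d4 and 554 to 610 in D3Dox_d4.

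With doxycycline, Otp was present on both days, Lhx3 was higher on both days, Lmx1a was lower on both days, Lhx5 was lower on day 2, and Isl2 and Lhx4 were higher on day 4. All 10 genes passed the filter on low counts, which asked for about 10 reads in at least 3 libraries. Otp passed it through the doxycycline groups, Isl2 through D3Dox_d4 and Lmx1a through the uninduced groups, which are the groups where each is high. Counts over the 10 genes are therefore a description, and nothing is read from them. On day 2 the fit had 2 of the 10 higher (Otp, Lhx3) and 2 lower (Lmx1a, Lhx5) at an adjusted p under 0.05, where it called 28.4% of all 18109 genes tested (14.9% higher, 13.4% lower). On day 4 it had 4 higher (Otp, Isl2, Lhx3, Lhx4) and 1 lower (Lmx1a), where it called 23.5% of all genes (13.4% higher, 10.2% lower). The median log2 fold change of the 10 genes was 0.02 on day 2, against -0.03 over all genes, and 0.72 on day 4, against -0.03. On day 2 the libraries of the 2 groups did not overlap for 3 of the 10 genes (2 higher, 1 lower), as for 46% of all genes. On day 4 they did not overlap for 7 (6 higher, 1 lower), as for 40.6% of all genes. In bulk RNA, a change in the number of cells of a type and a change in RNA per cell cannot be told apart.

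**Figure D1:**
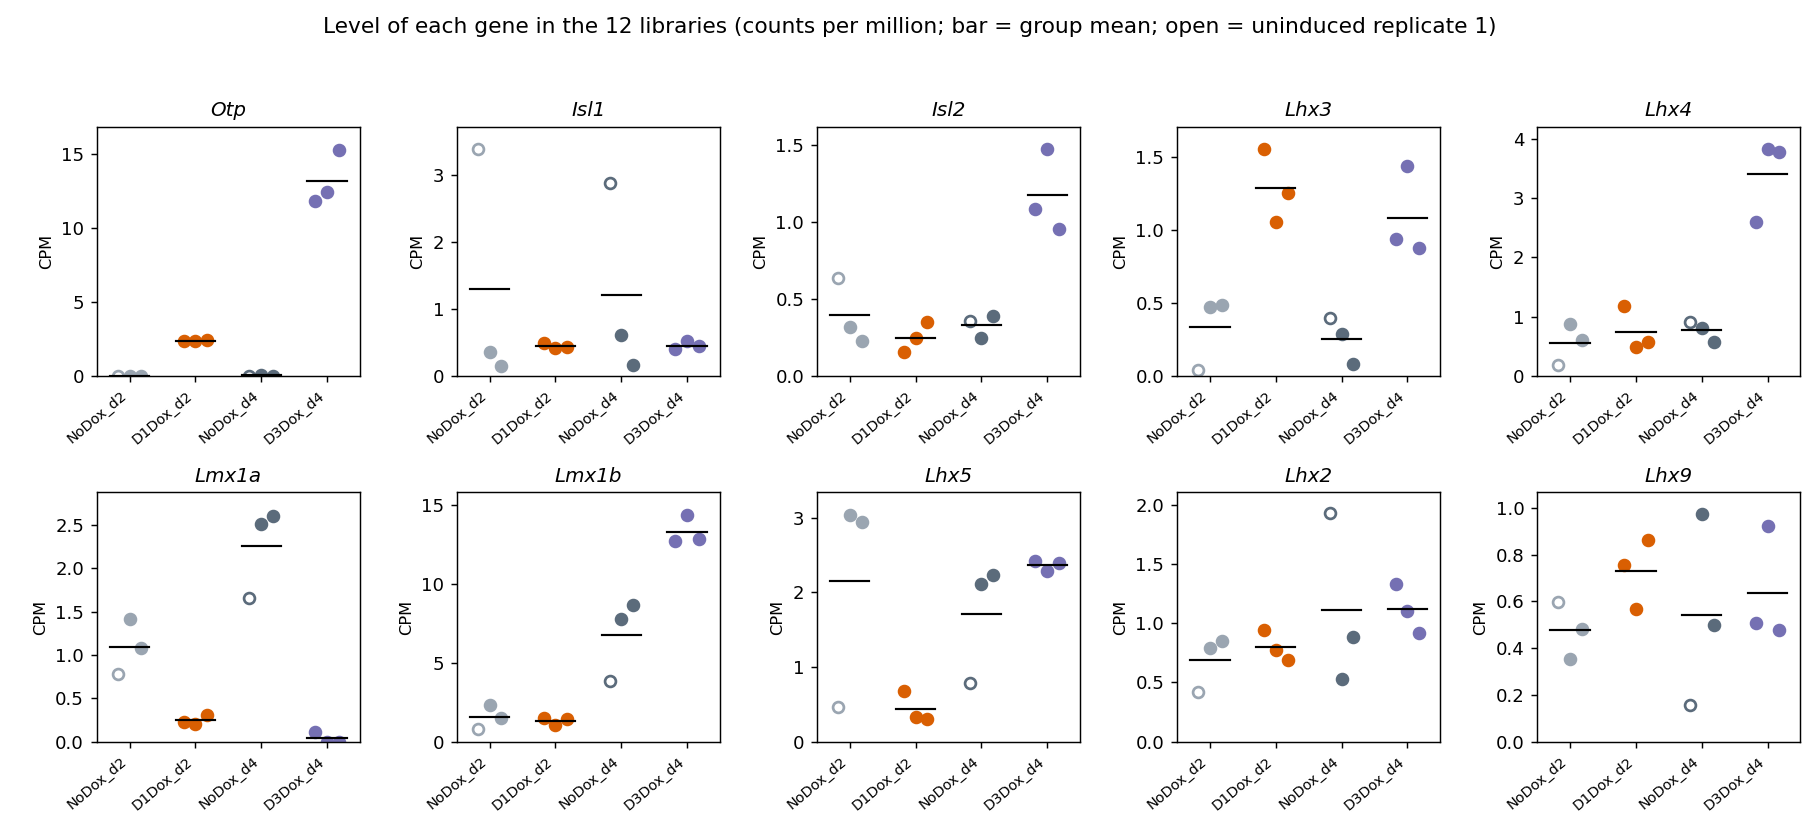
Level in CPM (vertical axes, each with its own scale) of the 10 genes in the 12 libraries, grouped by NoDox_d2, D1Dox_d2, NoDox_d4 and D3Dox_d4; points are libraries, bars are group means, and open points are the uninduced libraries labelled replicate 1. Otp was at 0 in 5 of the 6 uninduced libraries and above 11 CPM in every D3Dox_d4 library, whereas Lmx1a was at 0 in 2 of the 3 D3Dox_d4 libraries.

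Otp had 0 reads in each NoDox_d2 library and 0, 1 and 0 reads in NoDox_d4. With doxycycline it had 61, 57 and 56 reads in D1Dox_d2 and 326, 337 and 384 reads in D3Dox_d4. All 6 doxycycline libraries thus lay above all 6 uninduced ones, and the day 4 libraries above those of day 2. The mean level was 2.35 CPM in D1Dox_d2 (SD 0.06, n = 3). It was 13.2 CPM in D3Dox_d4 (SD 1.86, n = 3). Set against a floor of 3 reads over the NoDox_d2 group, Otp was at least 63.0-fold higher on day 2. On day 4 the ratio of the summed counts, 1047 against 1, was 996, a value that rests on 1 uninduced read. The library labelled NoDox_d2 replicate 1, with its high Mixl1 count, had 0 Otp reads like replicates 2 and 3. Otp took 23.6% to 31.1% of the summed CPM of the 10 genes in D1Dox_d2 and 32.4% to 40.3% in D3Dox_d4.

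The gene lies on chromosome 13, plus strand, at 94875602-94885130 (GRCm38), and none of its 2881 exon bases is shared with another gene. The one gene within 50 kb, Tbca, a tubulin-folding cofactor 32680 bp away, had log2 fold changes of 0.15 ± 0.17 (SE) on day 2 and 0.11 ± 0.17 on day 4 and was not called by edgeR (adjusted p = 0.520 and 0.682). Of 11810 genes compared over the 12 libraries, those most like Otp in log2 CPM were Alk (Pearson r = 0.995), a receptor tyrosine kinase, the potassium channel gene Kcna6 (0.992) and Acsl1 (0.990), an acyl-CoA synthetase. These 12 points share the libraries and the 2-day, 2-treatment design, so the values describe a shared pattern over groups.

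The 13 listed hypothalamic partners and neuropeptides of Otp did not move as one group. On day 2 the fit called 2 of the 6 tested higher and 2 lower, and on day 4 it called 2 higher and 1 lower. Sim1, the PAS-domain factor that acts beside Otp in the hypothalamus, was 0.317 to 0.474 CPM in NoDox_d2 and 4.39 to 5.88 CPM in D1Dox_d2, or 3.66 ± 0.84 (SE) on the log2 scale (adjusted p = 0.00812 by edgeR). On day 4 it was 11.7 to 15.4 CPM in D3Dox_d4, and 0.406, 0.499 and 5.75 CPM in NoDox_d4, the last in the library labelled replicate 1 (2.59 ± 0.73, adjusted p = 0.0249). Without the uninduced replicate 1 libraries the day 4 value was 4.86 ± 0.25 (adjusted p = 2.8e-09), and the list gave 3 higher and 2 lower on day 2 and 2 higher and 1 lower on day 4. Arnt2, the partner of Sim1 in DNA binding, fell on day 2 (-0.88 ± 0.14 on the log2 scale, adjusted p = 0.000779) and was not called on day 4 (0.23 ± 0.13, adjusted p = 0.251). Fezf2, a forebrain zinc-finger factor, rose by 4.31 ± 0.53 on day 2 (adjusted p = 0.000151) and was under 0.12 CPM in all D3Dox_d4 libraries. Fezf2 passed the filter only through D1Dox_d2, so that its values there had to be high to be tested at all.
Among the peptides, Trh (thyrotropin-releasing hormone) fell on both days (log2 fold changes -1.58 ± 0.26 and -1.24 ± 0.26, edgeR adjusted p = 0.00110 and 0.00469). Sst (somatostatin) was 13.5 to 19.2 CPM in D3Dox_d4 against 1.62 to 5.04 CPM in NoDox_d4, a rise of 2.20 ± 0.52 (adjusted p = 0.0105). The other 7 genes of the list were too low to test: Avp, Oxt and Crh, which encode further hypothalamic peptides, and Sim2, Nkx2-1, Rax and Fezf1. Nkx2-1, a defining gene of the ventral hypothalamus, had 0 reads in both uninduced groups, 3 in D1Dox_d2 and 17 in D3Dox_d4. Avp had 1 read in D1Dox_d2 and 1 in D3Dox_d4. In D3Dox_d4 a high Otp thus stood beside higher Sim1 and Sst and a lower Trh. Nkx2-1 was at 0.108 to 0.398 CPM there, at least 5.39-fold above a floor of 3 reads over NoDox_d4. The vasopressin gene Avp had 1 read there.

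Isl1 and Isl2, the Islet factors, followed different patterns. Isl1 had 13, 10 and 10 reads in D1Dox_d2 and 11, 14 and 11 in D3Dox_d4. It had 96, 9 and 4 reads in NoDox_d2 and 73, 15 and 4 in NoDox_d4, so that its highest values were those of the 2 uninduced libraries labelled replicate 1, at 3.39 and 2.88 CPM, and all other libraries were between 0.149 and 0.609 CPM. Its log2 fold changes were -1.55 ± 1.07 on day 2 and -1.42 ± 1.07 on day 4 (edgeR adjusted p = 0.303 and 0.376). Without those 2 libraries the sign turned, to 0.81 ± 0.61 and 0.25 ± 0.57 (adjusted p = 0.282 and 0.771). No direction can be given for Isl1.

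Isl2, which lies on chromosome 9, had 4, 6 and 8 reads in D1Dox_d2, 18, 8 and 6 in NoDox_d2 and 9, 6 and 10 in NoDox_d4. In D3Dox_d4 it had 30, 40 and 24 reads, above each of the other 9 libraries. The level was 1.17 ± 0.27 CPM (SD, n = 3) in D3Dox_d4 against 0.33 ± 0.07 in NoDox_d4, or 1.82 ± 0.44 (SE) on the log2 scale (adjusted p = 0.0111 by edgeR). Isl2 passed the filter only through this group, so that its day 4 values had to be high to be tested at all. On day 2 the log2 fold change was -0.67 ± 0.48 (adjusted p = 0.320). The fitted difference between the effects of the 2 days was 2.49 ± 0.65 (adjusted p = 0.0290) in a comparison in which 12.9% of all genes were called (6.66% higher, 6.24% lower) and Isl2 and Lmx1a were the members called. Without the uninduced libraries labelled replicate 1 these values were 1.88 ± 0.47, -0.14 ± 0.56 and 2.02 ± 0.74 (adjusted p = 0.00534, 0.851 and 0.0479). The call of the difference was lost without D1Dox_d2 replicate 1 or 2, D3Dox_d4 replicate 2 or 3 or NoDox_d4 replicate 2 (2.25 to 2.64, adjusted p = 0.0502 to 0.0726). Per kb of exon, Isl2 made up 79.8% to 83.8% of both Islet genes together in D3Dox_d4, 35.7% to 59.1% in D1Dox_d2, 25.3% to 73.0% in NoDox_d2 and 18.2% to 81.9% in NoDox_d4. The wide ranges without doxycycline follow from the Isl1 counts above.

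Lhx3 and Lhx4, sister genes that act together in motor neurons and in the pituitary, were both higher on day 4, and Lhx3 was also higher on day 2. Lhx3 had 41, 26 and 29 reads in D1Dox_d2 and 26, 39 and 22 in D3Dox_d4. It had 1, 12 and 13 reads in NoDox_d2 and 10, 7 and 2 in NoDox_d4, so the doxycycline libraries lay above the uninduced ones on both days. The log2 fold change was 1.96 ± 0.63 on day 2 and 2.09 ± 0.66 on day 4 (edgeR adjusted p = 0.0375 and 0.0384). Without the uninduced libraries labelled replicate 1 it was 1.42 ± 0.43 and 2.57 ± 0.52 (adjusted p = 0.0131 and 0.00127). The call did not hold with the replicate number as a block (adjusted p = 0.0528 on day 2 and 0.0579 on day 4), and each value rests on at most 41 reads. On day 2 it was also lost without any single doxycycline library or without NoDox_d2 replicate 2 or 3 (1.79 to 2.35, adjusted p = 0.0522 to 0.105). On day 4 it was lost without any single doxycycline library or without NoDox_d4 replicate 2 or 3 (1.66 to 2.22, adjusted p = 0.0573 to 0.124).
Of the 3045 exon bases of Lhx3, 6.17% are shared with Gm27196 on the opposite strand, and strand was not used in the counting.

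Lhx4 was at 0.488 to 1.17 CPM in D1Dox_d2, 0.176 to 0.869 in NoDox_d2 and 0.576 to 0.906 in NoDox_d4. In D3Dox_d4 it had 72, 104 and 95 reads, or 3.40 ± 0.70 CPM (SD, n = 3), above every other library. The log2 fold change on day 4 was 2.15 ± 0.48 (edgeR adjusted p = 0.00723), and 2.29 ± 0.38 without the uninduced libraries labelled replicate 1 (adjusted p = 0.000275). On day 2 it was 0.46 ± 0.51 (adjusted p = 0.535), and 0.03 ± 0.42 without them (adjusted p = 0.954). The difference between the days, 1.69 ± 0.70, was not called (adjusted p = 0.128), but was called without those 2 libraries, at 2.26 ± 0.58 (adjusted p = 0.00748). Per kb of exon, Lhx4 made up 19.2% to 28.6% of the pair of Lhx3 and Lhx4 in D1Dox_d2 and 58.6% to 69.6% in D3Dox_d4. The 2 doxycycline groups thus did not overlap in the balance of the pair, whereas the uninduced groups spread from 39.5% to 72.6% on day 2 and from 55.0% to 79.9% on day 4.
Qsox1, a sulfhydryl oxidase gene 24345 bp from Lhx4, rose on both days, by 0.59 ± 0.08 and 1.49 ± 0.09 (edgeR adjusted p = 0.000474 and 7.9e-07). Acbd6, 6701 bp away, was not called (adjusted p = 0.0992 and 0.726).

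The listed motor neuron genes gave 4 of 8 higher and 0 lower on day 2, and 5 higher and 2 lower on day 4. Nkx6-1, a progenitor factor of ventral neural tube, rose from 4.09 to 20.6 CPM in NoDox_d2 to 190 to 219 CPM in D1Dox_d2, and Nkx6-2, its sister gene, from 0.600 to 1.03 CPM to 79.8 to 94.4 CPM. Neurog2, a proneural factor, and Chat, the enzyme of acetylcholine synthesis, also rose on both days. Slc18a3, the vesicular acetylcholine transporter, rose on day 4, from 1.46 to 3.38 CPM to 19.7 to 22.4 CPM, or 3.001 ± 0.264 on the log2 scale (edgeR adjusted p = 1.6e-05). The motor neuron factor Mnx1 and the motor neuron progenitor factor Olig2 fell on day 4 (log2 fold changes -1.84 ± 0.56 and -2.89 ± 0.61, adjusted p = 0.0350 and 0.00552). Slc5a7, the choline transporter, was 2.85 to 4.69 CPM in D3Dox_d4 against 0.276 to 2.15 CPM in NoDox_d4 and was not called on day 4 (1.42 ± 0.48, adjusted p = 0.0526). Without the uninduced replicate 1 libraries the list gave 5 higher and 0 lower on day 2 and 6 higher and 2 lower on day 4, and Olig2 was -2.09 ± 0.40 on day 4 (adjusted p = 0.000752).

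**Figure D2:**
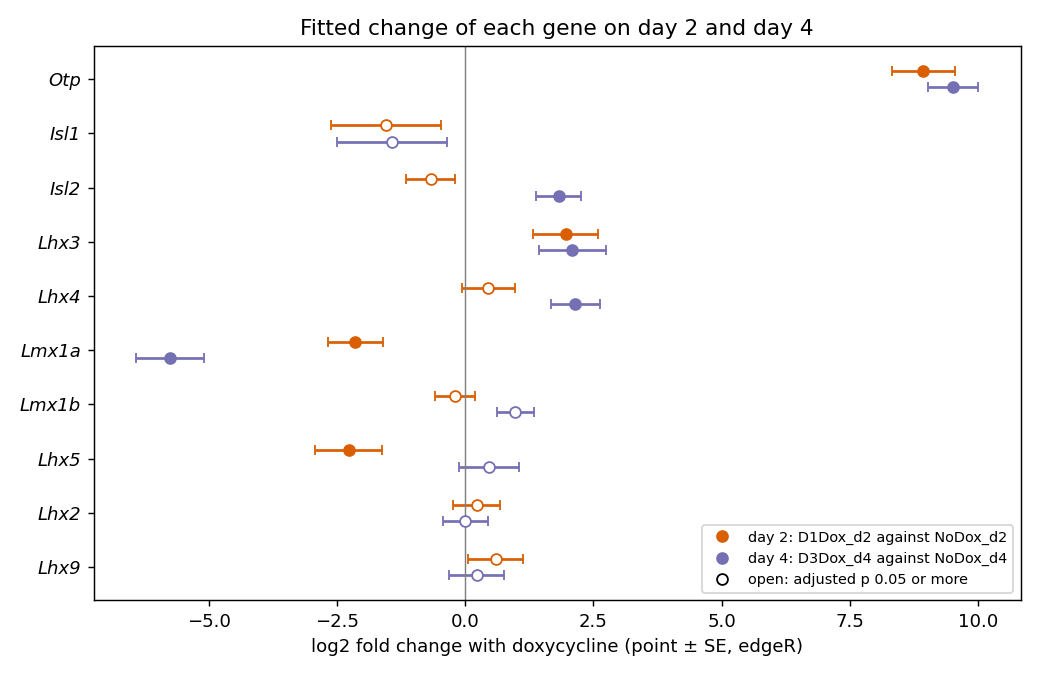
Fitted log2 fold change with doxycycline (horizontal axis) of the 10 genes on day 2 (D1Dox_d2 against NoDox_d2) and day 4 (D3Dox_d4 against NoDox_d4); points are edgeR estimates over 3 against 3 libraries, lines are ± 1 SE, and open points have an adjusted p of 0.05 or more. Lmx1a lies at -2.14 on day 2 and -5.75 on day 4, and Lmx1b at -0.19 and 0.98. Otp is drawn from the same fit as a description only. Its points rest on 0 uninduced reads on day 2 and 1 on day 4, so no size or test is read from them.

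Lmx1a and Lmx1b, sister genes that overlap in the roof plate and midbrain, moved apart. Lmx1a had 22, 36 and 29 reads in NoDox_d2 and 42, 62 and 68 reads in NoDox_d4. With doxycycline it had 6, 5 and 7 reads in D1Dox_d2 and 3, 0 and 0 reads in D3Dox_d4. The groups did not overlap on either day. Lmx1a passed the filter only through the uninduced groups, so that its values there had to be high for it to be tested at all. The log2 fold change was -2.14 ± 0.53 on day 2 (edgeR adjusted p = 0.0120). On day 4 the ratio of summed counts, 172 against 3, was 60.3-fold lower with doxycycline, with an exact 95% interval of 20.3 to 295 (counting error only), and edgeR gave -5.75 ± 0.67 (adjusted p = 0.000124). The difference between the days was -3.61 ± 0.91 (adjusted p = 0.0255). Without the uninduced libraries labelled replicate 1 the 3 values were -2.34 ± 0.49, -5.92 ± 0.60 and -3.58 ± 0.90 (adjusted p = 0.00100, 2.4e-06 and 0.00662). For day 2, leaving out D1Dox_d2 replicate 2 gave -2.03 (adjusted p = 0.0509), which is no longer called. That of the difference was lost without any single D1Dox_d2 library, D3Dox_d4 replicate 2 or 3 or NoDox_d2 replicate 3 (-3.71 to -3.06, adjusted p = 0.0520 to 0.0694).

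Lmx1b was the member with the most reads beside Otp. It had 22, 59 and 40 reads in NoDox_d2, 40, 26 and 33 in D1Dox_d2, 97, 191 and 225 in NoDox_d4 and 352, 390 and 323 in D3Dox_d4. Every day 4 library lay above every day 2 library, and the D3Dox_d4 libraries above those of NoDox_d4. Between the uninduced groups Lmx1b rose from 1.53 ± 0.78 CPM (SD, n = 3) on day 2 to 6.74 ± 2.57 CPM on day 4, a log2 fold change of 2.14 ± 0.38 (edgeR adjusted p = 0.00481). It was the one member called between the uninduced groups, where 10.6% of all genes were called (5.09% higher, 5.55% lower). Lmx1a and Lmx1b were the 2 members whose libraries did not overlap there, as for 23.2% of all genes. Lmx1b was called again with the replicate number as a block within those 6 libraries, though not when only those 6 libraries were fitted without a block. Without the uninduced replicate 1 libraries the value was 2.11 ± 0.21 (adjusted p = 7.3e-06).
With doxycycline the log2 fold change was -0.19 ± 0.39 on day 2 (adjusted p = 0.748) and 0.98 ± 0.36 on day 4 (adjusted p = 0.0668). On day 4 it was called with the replicate number as a block (1.04, adjusted p = 0.0453), with no filter (0.99, adjusted p = 0.0493) and by DESeq2 (0.98, adjusted p = 0.0256). Without the uninduced libraries labelled replicate 1, of which NoDox_d4 replicate 1 had the lowest day 4 level (3.82 CPM), the day 4 value was smaller but called, at 0.70 ± 0.17 (adjusted p = 0.00410), and the day 2 value was -0.51 ± 0.24 (adjusted p = 0.0831). The difference between the days was 1.17 ± 0.53 (adjusted p = 0.161), and 1.21 ± 0.29 without them (adjusted p = 0.00495). From D1Dox_d2 to D3Dox_d4, which differ in day and in treatment timing together, Lmx1b rose by 3.31 ± 0.40 (adjusted p = 9.4e-05), one of 5 members, Otp included, that were higher and 1 lower in a comparison in which 44% of all genes were called (22.6% higher, 21.4% lower). The same 6 members (Otp, Isl2, Lhx4, Lhx5 and Lmx1b higher, Lmx1a lower) did not overlap between these groups, as for 65.7% of all genes.

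Per kb of exon, Lmx1b made up 40.6% to 52.8% of the pair of Lmx1a and Lmx1b in NoDox_d2, 61.2% to 69.3% in NoDox_d4, 76.3% to 82.0% in D1Dox_d2 and 98.8% to 100% in D3Dox_d4. The 4 groups did not overlap in this share, and both doxycycline groups lay above both uninduced ones. On day 2 the share differed mainly through fewer Lmx1a reads, since Lmx1b overlapped between the groups. Over the 12 libraries the Pearson correlation of log2 CPM was -0.947 between Lmx1a and Otp and -0.269 between Lmx1a and Lmx1b, as a description of points that share the 4 groups.
Of the neighbours within 50 kb, C130021I20Rik, 585 bp from Lmx1b, had a log2 fold change of 0.93 ± 0.48 on day 4 (edgeR adjusted p = 0.196). For Rxrg, a retinoid receptor gene 49614 bp from Lmx1a, it was 1.69 ± 0.39 on day 4 (adjusted p = 0.00872). The mean level of Rxrg was 3.16 CPM in NoDox_d4 and 10.2 CPM in D3Dox_d4. On day 2 it was 9.25 CPM in NoDox_d2 and 9.05 CPM in D1Dox_d2, so that NoDox_d4 was the low group.

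Of 9 tested genes of the roof plate and of midbrain dopaminergic or serotonergic neurons, 3 rose and 1 fell on day 2, and 2 rose and 1 fell on day 4. On each day, 5 rose and 2 fell without the uninduced replicate 1 libraries. Gdf7, a roof plate ligand of the BMP family, was 0.0743 to 0.141 CPM in NoDox_d2 and 1.10 to 1.51 CPM in D1Dox_d2. On day 4 it was 0.158 to 0.609 CPM in NoDox_d4 and 6.14 to 12.6 CPM in D3Dox_d4 (4.54 ± 0.44 on day 4, edgeR adjusted p = 3.2e-05). Gdf7 passed the filter through the doxycycline groups, where it is high. Nr4a2, a factor of dopaminergic neurons, rose on both days, by 2.20 ± 0.28 and 2.11 ± 0.28 (adjusted p = 0.000227 and 0.000342). Wnt3a, a roof plate ligand, fell on day 2 (-2.18 ± 0.63, adjusted p = 0.0240, and -0.76 ± 0.21, adjusted p = 0.00710, without the uninduced replicate 1 libraries), and Foxa2, a floor plate and endoderm factor, fell on day 4 (-1.82 ± 0.46, adjusted p = 0.0136). Pitx3, Fev and Tph2, defining genes of dopaminergic and serotonergic neurons, were too low to test. Wnt1, of the same list, had lower means with doxycycline but was not called on either day. It was 8.85 ± 7.47 CPM (SD, n = 3) in NoDox_d2 and 1.34 ± 0.28 in D1Dox_d2. On day 4 it was 8.23 ± 6.02 CPM in NoDox_d4 and 2.79 ± 0.95 in D3Dox_d4. The uninduced replicate 1 libraries lay below all doxycycline libraries of their day. A higher Gdf7 thus stood beside a lower Lmx1a in the doxycycline libraries of both days, but the list did not move as one group.

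Lhx5, an interneuron and forebrain factor, was low in D1Dox_d2. It had 18, 8 and 7 reads there, 67, 62 and 60 in D3Dox_d4, 13, 77 and 79 in NoDox_d2 and 20, 52 and 58 in NoDox_d4. Among the uninduced libraries the 2 labelled replicate 1 were the lowest of their groups, at 0.459 and 0.788 CPM, and NoDox_d2 replicate 1 lay within the range of D1Dox_d2. The log2 fold change on day 2 was -2.27 ± 0.65 (edgeR adjusted p = 0.0231), and -2.75 ± 0.30 without those 2 libraries (adjusted p = 3.4e-06), where the groups no longer overlapped. The call was lost without replicate 2 or 3 of either day 2 group (-2.10 to -1.94, adjusted p = 0.0785 to 0.0874). On day 4 the D3Dox_d4 libraries, at 2.36 ± 0.07 CPM (SD, n = 3), lay above those of NoDox_d4, but by 0.47 ± 0.58 (adjusted p = 0.614), and by 0.12 ± 0.26 without the 2 libraries (adjusted p = 0.753). The difference between the days was 2.73 ± 0.87 (adjusted p = 0.0602), and 2.87 ± 0.41 without them (adjusted p = 9.3e-05).
Gm27199, on the opposite strand, shares 2.57% of the exon bases of Lhx5.

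Lhx1, the sister gene of Lhx5 and a factor of the node and head mesoderm as well as of interneurons, moved the other way on day 2. It had 60.5 to 79.0 CPM in D1Dox_d2 and 4.35, 4.62 and 15.9 CPM in NoDox_d2, the last in the library labelled replicate 1 (log2 fold change 3.02 ± 0.53, edgeR adjusted p = 0.00174, and 3.91 ± 0.25, adjusted p = 1.2e-08, without the uninduced replicate 1 libraries). On day 4 it was 8.56 to 17.5 CPM in D3Dox_d4 and 8.75 to 22.2 CPM in NoDox_d4 (-0.09 ± 0.50, adjusted p = 0.926). The effects of the days differed by -3.11 ± 0.72 (adjusted p = 0.0175). Per kb of exon, Lhx5 made up 0.752% to 1.29% of the pair of Lhx1 and Lhx5 in D1Dox_d2, against 16.5% to 30.0% in D3Dox_d4. In the uninduced groups the libraries labelled replicate 1 had 4.19% and 5.10%, and the others 26.4% to 50.6%.

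Lhx2 and Lhx9, sister genes of spinal dorsal interneurons, did not differ between groups beyond the spread of their libraries. Lhx2 was 0.692 to 0.946 CPM in D1Dox_d2, 0.423 to 0.855 in NoDox_d2, 0.915 to 1.34 in D3Dox_d4 and 0.528 to 1.93 in NoDox_d4, the last value in the library labelled replicate 1. Its log2 fold changes were 0.23 ± 0.46 on day 2 and 0.01 ± 0.44 on day 4 (edgeR adjusted p = 0.746 and 0.994). Lhx9 had 4 to 25 reads in each library, and log2 fold changes of 0.60 ± 0.53 and 0.23 ± 0.53 (adjusted p = 0.430 and 0.802). Without the uninduced replicate 1 libraries Lhx2 was at -0.04 ± 0.37 and 0.66 ± 0.36 (adjusted p = 0.944 and 0.173), and Lhx9 at 0.78 ± 0.49 and -0.20 ± 0.45 (adjusted p = 0.191 and 0.764). A change of the size of these SEs was not detectable at such counts.

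**Figure D3:**
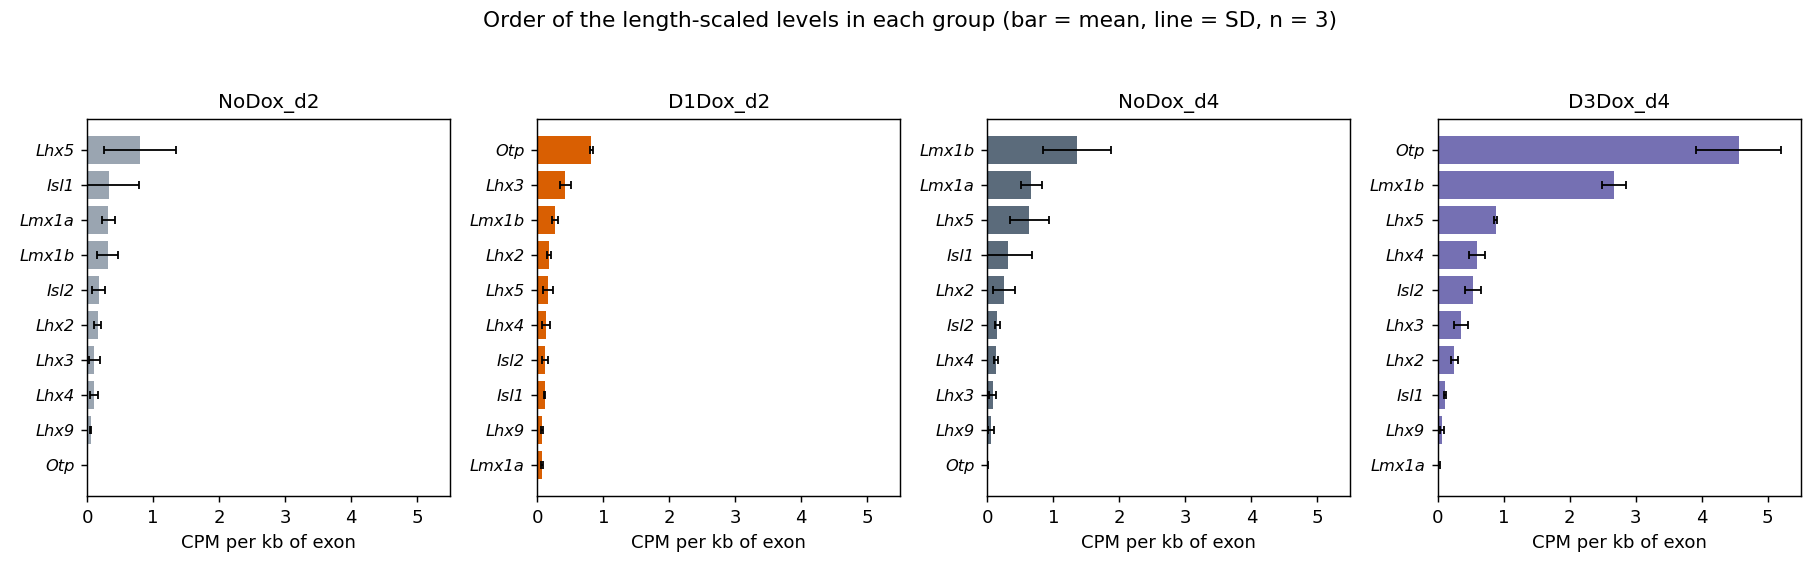
Mean level per kb of exon (CPM per kb, horizontal axis, the same scale in all panels) of the 10 genes in each group, ordered from highest to lowest; lines are ± 1 SD of 3 libraries, clipped at 0. Otp is last in both uninduced groups and first in both doxycycline groups, at 4.57 in D3Dox_d4.

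Levels of different genes were compared per kb of exon. In D3Dox_d4 Otp came first with 4.57 ± 0.65 CPM per kb (SD, n = 3), followed by Lmx1b with 2.67 ± 0.18 and Lhx5 with 0.88 ± 0.03, and the libraries of these 3 genes did not overlap. Lhx4 (0.593), Isl2 (0.534), Lhx3 (0.356) and Lhx2 (0.255) came next, and each of these 4 overlapped its neighbour. In D1Dox_d2 Otp was first with 0.815 ± 0.022 and Lhx3 second with 0.423 ± 0.082, and neither overlapped the gene after it. In NoDox_d2 Lhx5 was the highest by mean (0.798), but all neighbours in the order down to Lhx9 overlapped. In NoDox_d4 Lmx1b was the highest by mean (1.35), followed by Lmx1a (0.666), and again all neighbours down to Lhx9 overlapped. Lmx1a thus stood second in NoDox_d4 and last in D3Dox_d4, where its mean was 0.0106 CPM per kb. The summed level of the 10 genes was 7.44 to 9.80 CPM in D1Dox_d2 and 7.27 to 9.95 in NoDox_d2, and 33.9 to 38.4 CPM in D3Dox_d4 against 12.9 to 16.05 in NoDox_d4.

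Genes whose pattern was most like that of the other members, among 11811 compared (11810 for Lmx1b), were Dach1, Cxcr4 and Lsamp for Lmx1b (r = 0.991, 0.989 and 0.988), Mapk12, Btbd1 and Bbs7 for Lhx5 (0.977, 0.975 and 0.970), Fkbp3, Cenpm and Srsf10 for Lmx1a (0.971, 0.964 and 0.960), and Fam110b for Isl2 and Cplx1 for Lhx4 (both 0.963). For Lhx9 and Lhx2 the highest values were lower, 0.860 with Hspa1b and 0.873 with Wipf1. Each value is over the same 12 libraries.

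The 3 other LIM homeobox genes listed, Lhx1, Lhx6 and Lhx8, were tested in the same fit. Lhx6, a factor of forebrain interneurons, rose on day 2 from 0.600 to 0.892 CPM to 1.90 to 3.14 CPM (1.70 ± 0.45, edgeR adjusted p = 0.0154). On day 4 its log2 fold change was 1.00 ± 0.43 (adjusted p = 0.115). Lhx8, a factor of forebrain cholinergic neurons, had 3 reads in D1Dox_d2 against 20 in NoDox_d2, a count ratio of 6.14-fold lower (exact 95% interval 1.82 to 32.2, counting error only). It had 41 reads in D3Dox_d4 against 8 in NoDox_d4 (2.24 ± 0.60, adjusted p = 0.0193), and the effects of the days differed by 4.72 ± 0.96 (adjusted p = 0.0102). Lhx8 passed the filter through D3Dox_d4, where it was highest. All 3 genes were called on day 2 (2 higher, 1 lower) and 1 on day 4, also without the uninduced replicate 1 libraries. Leaving out single libraries gave 1 to 2 higher and 0 to 1 lower on day 2, and 0 to 1 higher on day 4.

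Of the 10 listed cofactors and LIM-only competitors, 3 rose and 4 fell on day 2, and 2 rose on day 4. LIM-only proteins have LIM domains but no homeodomain and compete for Ldb1. Lmo1 showed the largest change of the list: 0.388 to 1.70 CPM in NoDox_d2 against 144 to 181 CPM in D1Dox_d2, and 2.48 to 3.15 CPM in NoDox_d4 against 326 to 436 CPM in D3Dox_d4. Its log2 fold changes were 7.30 ± 0.35 and 7.05 ± 0.33 (edgeR adjusted p = 1.5e-07 on both days). Lmo4 rose by 1.26 ± 0.12 on day 2 and 1.89 ± 0.12 on day 4 (adjusted p = 3.0e-05 and 2.2e-06), and Lmo3 rose on day 2 by 3.14 ± 0.56 (adjusted p = 0.00193). Ldb1 fell on day 2 (-0.26 ± 0.09, adjusted p = 0.0452) and its log2 fold change on day 4 was 0.20 ± 0.09 (adjusted p = 0.132, and 0.24 ± 0.08, adjusted p = 0.0279, without the uninduced replicate 1 libraries), with levels of 190 to 315 CPM in all libraries. Ldb2, Ssbp2 and Ssbp4, further parts of the Ldb complex, fell on day 2 (-0.87 ± 0.17, -0.71 ± 0.19 and -0.57 ± 0.13, adjusted p = 0.00304, 0.0172 and 0.00903). On day 2, Lmo1 and Lmo4 thus rose while 4 genes of the Ldb complex fell. Leaving out single libraries gave 3 higher and 2 to 4 lower on day 2, and 2 to 3 higher and 0 lower on day 4. Without the uninduced libraries labelled replicate 1 the list gave 4 higher and 4 lower on day 2, and 6 higher and 2 lower on day 4.

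**Figure D4:**
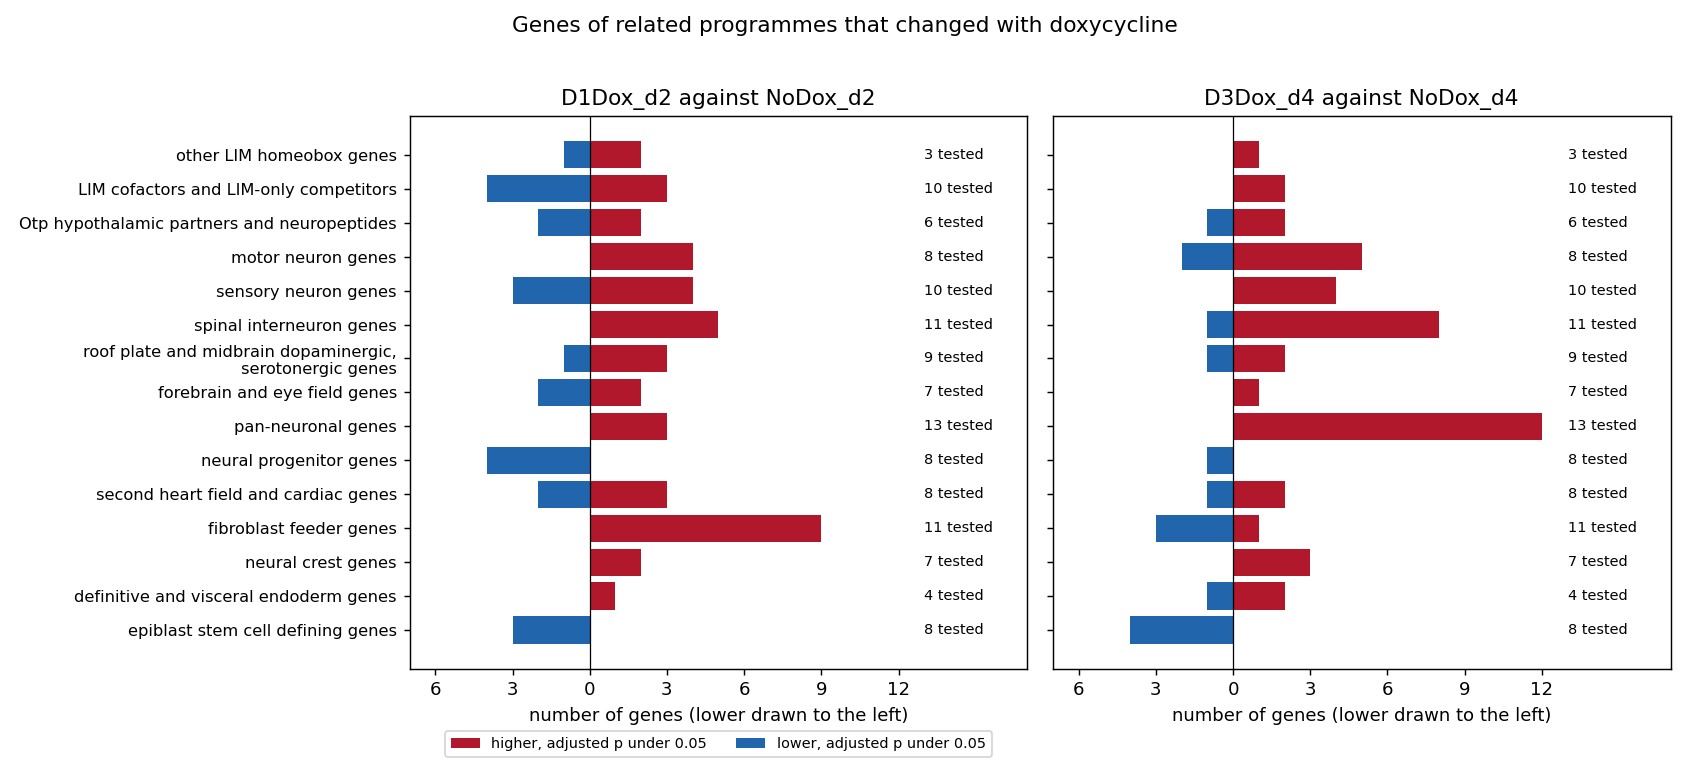
Number of genes called higher (right, red) or lower (left, blue) with doxycycline on day 2 and day 4 at an adjusted p under 0.05 in each of 15 lists of related genes, with the number tested at the right. On day 4 the pan-neuronal list has 12 of 13 genes higher; on day 2 the fibroblast list has 9 of 11 higher.

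The lists of neuron classes and of general neuronal genes show the setting in which the members moved. On day 4, 12 of 13 pan-neuronal genes rose, with a median log2 fold change of 2.17. Tubb3, neuronal tubulin, was 387 to 500 CPM in D3Dox_d4 and 36.0 to 139 CPM in NoDox_d4, the lowest in the library labelled replicate 1, and Gap43, a growth cone protein, was 125 to 174 CPM against 17.7 to 32.1. On day 2, 3 of the 13 rose (Tubb3, Syt1 and Gap43), with a list median of 0.22. The summed level of the list was 1952 to 2187 CPM in D3Dox_d4 against 225 to 692 in NoDox_d4, and 490 to 602 in D1Dox_d2 against 329 to 456 in NoDox_d2. The part of this list in the changes of Isl2, Lhx4 and Otp on day 4 was not tested.
Leaving out single libraries gave 10 to 12 of the 13 higher on day 4. With the uninduced replicate 1 libraries left out, 12 rose on day 4, and 5 rose and 3 fell on day 2.

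Of 11 tested spinal interneuron genes, 5 rose and 0 fell on day 2, and 8 rose and 1 fell on day 4. Without the uninduced replicate 1 libraries 7 rose and 2 fell on day 2, and 8 rose and 1 fell on day 4. Pax8 and Barhl2, homeodomain or paired factors of spinal interneurons, rose on both days, Pax8 by 3.60 ± 0.52 and 4.73 ± 0.54 (edgeR adjusted p = 0.000513 and 0.000113) and Barhl2 by 6.25 ± 0.57 and 5.27 ± 0.66 (adjusted p = 2.0e-05 and 0.000195). Without those 2 libraries Pax8 was at 5.75 ± 0.28 on day 4 (adjusted p = 1.3e-09) and Barhl2 at 6.998 ± 0.373 on day 2 (adjusted p = 1.8e-09). Barhl2 passed the filter through the doxycycline groups, where it is high. Tlx3, which acts beside Lmx1b in dorsal interneurons, rose on day 2 by 1.57 ± 0.50 (adjusted p = 0.0371) and fell on day 4 (-1.34 ± 0.45, adjusted p = 0.0496). The 10 sensory neuron genes found gave 4 higher and 3 lower on day 2, and 4 higher and 0 lower on day 4, against 5 and 3, and 7 and 1, without them. Among them, Prph (peripherin) rose on both days, by 3.09 ± 0.20 and 2.30 ± 0.20 (adjusted p = 1.5e-06 and 1.4e-05).
The forebrain and eye field list, of which Lhx2 is a usual companion, gave 2 of 7 higher and 2 lower on day 2, and 1 higher on day 4. Without them it gave 2 higher and 2 lower on day 2, and 3 higher and 2 lower on day 4.

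Markers of other cell types also moved with doxycycline. On day 2, 9 of 11 fibroblast genes rose and 0 fell, with a summed level of 3674 to 4192 CPM in D1Dox_d2 against 1026 to 2454 in NoDox_d2. On day 4, 1 rose and 3 fell, with 1414 to 1477 CPM in D3Dox_d4 against 1048 to 1862 in NoDox_d4. Leaving out the uninduced replicate 1 libraries, 11 rose on day 2, and 5 rose and 2 fell on day 4, so that the balance on day 4 turned. No gene of that list was at 0 in a group. Of 8 tested second heart field and cardiac genes, for which Isl1 is a defining factor, 3 rose and 2 fell on day 2, and 2 rose and 1 fell on day 4. Without those 2 libraries 5 rose and 2 fell on day 2, and 3 rose and 1 fell on day 4. Tbx20 rose on both days, by 5.17 ± 0.42 and 5.07 ± 0.44 (edgeR adjusted p = 8.0e-06 and 1.4e-05, with 5.97 ± 0.19 on day 2 without them), to 84.2 to 103 CPM in D1Dox_d2, where Isl1 stayed at 0.406 to 0.492 CPM, and Nkx2-5 was too low to test. Neural progenitor genes fell in 4 of 8 cases on day 2 and 1 of 8 on day 4, and rose in 0. Without the uninduced replicate 1 libraries 7 of 8 fell on each day. Those fits called 9902 and 7168 of all genes, in place of 5136 and 4263. Sox3 fell on both days (-3.03 ± 0.17 and -2.12 ± 0.17, adjusted p = 6.3e-07 and 6.9e-06). Of 7 neural crest genes 2 rose on day 2 and 3 on day 4, and of 4 tested endoderm genes 1 rose on day 2, and 2 rose and 1 fell on day 4. Of 8 epiblast stem cell genes 3 fell on day 2 and 4 on day 4. The neural crest list without the uninduced replicate 1 libraries gave 3 higher and 1 lower on day 2 and 4 higher and 2 lower on day 4. The endoderm list likewise gave 3 higher on day 2, and 2 higher and 1 lower on day 4. The epiblast stem cell list likewise gave 1 higher and 5 lower on day 2, and 1 higher and 6 lower on day 4. What part these other cell types had in the levels of Otp and the LIM homeobox genes was not tested.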

How the data were processed

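RNA of 12 libraries in 4 groups was sequenced as 150 bp read pairs (NEBNext Ultra II kit) and trimmed with Trim Galore to at least 50 bp, per the labels' protocols. STAR, featureCounts and DESeq2 are listed in the submitters' processing notes, with the builds mm10 and GRCm38. The gene-level counts of read pairs that the authors deposited, unscaled, come from featureCounts 2.0.1 with GENCODE vM25 and no strand setting, per the file headers. Symbols matched 55141 of 55487 identifiers. Drgx, in the sensory neuron list, was not matched.

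edgeR 4.0.16 (with limma 3.58.1 under R 4.3.3) gave the tests: quasi-likelihood F, TMM, filterByExpr (minimum count 10), 1 coefficient per group, 8 residual degrees of freedom, and Benjamini-Hochberg adjustment over 18109 genes. A gene was called at an adjusted p under 0.05. To obtain the SE, the size of a log2 fold change was divided by the root of its F, which can understate counting error where a group holds few reads. Correlations used log2 CPM with a prior count of 2. The scripts were tested on simulated data.

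The members and all lists were chosen with earlier results of these data known. The genes named are the members, Mixl1, up to 2 called genes of each list per direction and day with the lowest adjusted p, and the 3 genes most like each member that reach 5 CPM in a group; not all are printed. T, Ldb1, Lmo3, Slc5a7, Ssbp2, Neurog2, Tubb3, Wnt1, genes near a member and genes too low to test fall outside this rule. They were chosen after their values were seen.

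Same-numbered libraries deviated together in the uninduced groups (correlations of 0.545, 0.361 and 0.308), though the labels do not say what a number marks. As alternatives, scaling was changed to DESeq2 size factors or the upper quartile, the filter to none or to 1 CPM in 3 libraries, and the test to DESeq2 1.42.0. The replicate number was added as a block, only the libraries compared were fitted, each library was left out, and both uninduced libraries labelled replicate 1 were left out. A block within only the 6 uninduced libraries was added after seeing the data.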

Additional observations from a re-analysis of the deposited data

Results flagged for a closer look

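For 2 of the 10 genes edgeR's test of the difference between the effects on day 4 and day 2 passed the threshold. For Isl2 the difference was 2.49 ± 0.65 (SE, adjusted p = 0.0290), from a log2 fold change of -0.67 on day 2 and 1.82 on day 4. Isl2 passed the filter on low counts only through the D3Dox_d4 libraries, where it is high. For Lmx1a it was -3.61 ± 0.91 (adjusted p = 0.0255), from -2.14 and -5.75. With 3 reads in the D3Dox_d4 group, the day 4 value depends on the prior count. Lmx1a passed the filter only through the uninduced groups, where it is high. Induction timing and day of collection differ together between the 2 effects and cannot be told apart. No group had 4 or more libraries, so none was examined for single outlying values.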

How the results depend on the processing

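Over 979 values of the members' log2 fold changes under the alternatives, 925 kept their side of the threshold, 40 lost a call, 14 gained one and 0 reversed a called direction. The total includes comparisons that no setting called and those of Otp, so it does not measure how firm the calls are. The call of Lhx3 was lost in 10 of 20 settings on day 2 and in 9 of 20 on day 4. Counts of members called higher on day 2, on day 4 and between the doxycycline groups include Otp. For day 2, the members called higher were 1 in place of 2 with the replicate block and with only the libraries compared, and 1 to 2 without single libraries. The members called lower on day 2 were 1 in place of 2 with only the libraries compared, and 0 to 2 without single libraries. The calls lost were those of Lhx3 in the block and of Lhx3 and Lhx5 with only the libraries compared. For the difference between the days, the members called higher were 2 in place of 1 with no filter and with the DESeq2 test, 0 with the filter of 1 CPM in 3 libraries, which removes Isl2, and 4 without both uninduced libraries labelled replicate 1. They were 0 to 4 without single libraries, with 4 without NoDox_d2 replicate 1, and the members called lower were 0 to 1. Between the uninduced days, the members called higher were 0 in place of 1 with only the libraries compared. Between the doxycycline groups, the members called lower were 0 in place of 1 with only the libraries compared, where Lmx1a had too few reads to be tested, and 0 to 1 without single libraries. The Lmx1a call there was lost without D1Dox_d2 replicate 3 or D3Dox_d4 replicate 2 or 3 (-2.39 to -2.02, adjusted p = 0.0633 to 0.0681). With the replicate block Lmx1b was called on day 4, at 1.04 on the log2 scale (adjusted p = 0.0453). Where not stated, the cause was not tested. The calls lost without single libraries, those of Lhx3, Lhx5 and Lmx1a on day 2, Lhx3 on day 4 and Isl2 and Lmx1a in the difference, are given with their values in the report. Without both uninduced libraries labelled replicate 1, the genes called over all those tested were 9902 in place of 5136 on day 2, 7168 in place of 4263 on day 4, 6424 in place of 2336 for the difference and 4534 in place of 1926 between the uninduced days, where only the libraries compared gave 206. Without single libraries the counts for these 4 comparisons ran from 3048 to 7438, 2756 to 5554, 1226 to 5037 and 1064 to 3208. In the block fit of only the 6 uninduced libraries, added after seeing the data, 1928 genes were called and Lmx1b was the 1 member among them. Of the 10 genes, 7 had under 100 reads in every library, and that depth limits what can be called. The difference uses all 4 groups, so it had no fit of only the libraries compared.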
